A study of Mus musculus with 8 samples.

Results

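This section describes 6 genes for receptors that guide lymphocytes to and from tissues: the chemokine receptor genes Ccr7, Cxcr4, Cxcr5 and Ccr9 and the sphingosine 1-phosphate (S1P) receptor genes S1pr1 and S1pr4. They were chosen by name from the 32499 genes of the deposited count table, with earlier results of these data known. All 6 were in it. The filter on low counts kept 12970 genes for testing, 5 of the 6 receptors among them, and left out Ccr9. The table covers RNA of 8 mouse pre-B cell cultures, in 4 groups of 2. All were bone marrow cells of the C57BL/6 strain with the Arf-/- genotype, so the controls lack this tumour suppressor too. They had been transduced with lentivirus and sorted for GFP. The controls carried an empty vector. The other groups carried HA-tagged wild-type ZNF384, a zinc finger transcription factor, or its leukaemia fusions TAF15-ZNF384 and TCF3-ZNF384. These are cultured pre-B cells that express a construct from a virus, outside the tissues where these receptors guide lymphocytes. The series calls the 2 cultures of a group biological replicates, without saying whether they came from separate mice.

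All 6 genes encode G protein-coupled receptors, and their ligands are laid out as gradients in tissue. Cxcr4 reads CXCL12 and holds B cell precursors in the bone marrow. Ccr7 reads CCL19 and CCL21 and draws lymphocytes to the T cell zones of lymph nodes. Cxcr5 reads CXCL13 and draws mature B cells to follicles, and Ccr9 reads CCL25 of thymus and gut. S1pr1 and S1pr4 bind S1P, a lipid that is abundant in blood and lymph, and S1pr1 lets lymphocytes leave tissue towards it.

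Library totals ran from 9381954 counts in a TAF15-ZNF384 library to 41483660 in a wild-type ZNF384 library. A group of 5 abundant non-coding genes took 27.2 and 33.2% of the counts with the empty vector, 10.9 and 12.5% with wild-type ZNF384, and 18.5 to 29.6% with the fusions. Levels are given as CPM (counts scaled to library size by TMM, a scaling that is robust to a few abundant genes). Zfp384 is the mouse gene for ZNF384, and it was counted at 21.6 and 24.0 CPM in the control libraries and at 51.1 and 90.2 CPM with wild-type ZNF384. TAF15-ZNF384 libraries had 162 and 185 CPM of it and TCF3-ZNF384 libraries 450 and 511 CPM. The 10 B lineage markers were all above 1 CPM in every group and summed to 5746 to 6687 CPM. The myeloid markers summed to at most 1.62 CPM. Of the 9 T and NK cell markers, Cd8a was at 0 throughout and the sum was 19.8 to 28.0 CPM, nearly all of it Lck. The 6 mature B cell markers in the table summed to 18.5 and 23.6 CPM with wild-type ZNF384 and to 5.44 to 10.8 CPM in the other groups, most of it Cd22, and Ms4a1 was at 0 with the empty vector, wild-type ZNF384 and TCF3-ZNF384. The 7 stromal and endothelial markers summed to 48.4 to 58.2 CPM with the fusions and to 28.0 to 32.9 CPM in the other groups, most of it Pecam1. The 6 erythroid and megakaryocyte markers summed to 4.05 to 7.28 CPM. The part of these marker lists and of the non-coding share in the results below was not tested.

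The RefSeq promoter table on GRCm38.p6, a later build than the mm9 of the counts, held 3 of the 6 receptors: Cxcr4, Ccr9 and S1pr4. The 250 bases before the start are shown for Cxcr4 and S1pr4, the abundant receptors among these 3. Capitals mark the letters searched for on both strands: the run AAAAAAAA, since ZNF384 is known to bind runs of A, and CAGGTG and CAGCTG, forms of the E-box that TCF3 proteins bind. The motifs do not overlap each other in these windows. The Cxcr4 window is chr1:128592300-128592549 on the minus strand, and the S1pr4 window is chr10:81500138-81500387 on the minus strand.
Cxcr4: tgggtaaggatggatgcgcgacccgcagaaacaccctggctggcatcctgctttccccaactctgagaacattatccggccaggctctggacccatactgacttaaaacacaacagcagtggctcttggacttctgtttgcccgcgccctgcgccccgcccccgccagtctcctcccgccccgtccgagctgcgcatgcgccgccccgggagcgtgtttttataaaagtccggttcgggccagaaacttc
S1pr4: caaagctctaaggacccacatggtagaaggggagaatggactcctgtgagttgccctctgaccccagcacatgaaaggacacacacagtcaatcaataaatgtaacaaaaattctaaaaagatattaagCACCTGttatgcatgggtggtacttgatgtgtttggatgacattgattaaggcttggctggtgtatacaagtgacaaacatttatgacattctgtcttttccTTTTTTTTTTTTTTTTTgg
The Cxcr4 window held none of the 3 motifs and had a GC content of 61.2%. The S1pr4 window had a GC content of 38.8%, 1 match of the E-box CAGGTG, read here as CACCTG, and 1 run of 17 T, which is a run of A on the other strand. Ccr9 held 1 CAGGTG and no run of A. Of 32851 windows of this length in the table, 7.31% held a run of at least 8 A or T, 17.2% held CAGGTG and 13% held CAGCTG. A match describes the letters and does not show binding.

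Of the 6 receptors, 3 were abundant and 3 were scarce. Per kilobase of exon, the scale on which genes can be compared, the empty vector cells held 110 ± 1.34 CPM per kilobase of Ccr7 (SD, n = 2), 107 ± 0.817 of S1pr4 and 80.3 ± 4.69 of Cxcr4. Cxcr5 was at 1.26 ± 0.36 CPM per kilobase, S1pr1 at 0.105 ± 0.00228 and Ccr9 at 0.0562 ± 0.0623. Ccr7 and S1pr4 levels in the control were closer than the difference between either and Cxcr4. With wild-type ZNF384 the order of the abundant receptors was different, with S1pr4 at 71.0 ± 12.1, Cxcr4 at 44.5 ± 4.04 and Ccr7 at 39.5 ± 3.05 CPM per kilobase. With TAF15-ZNF384, Cxcr4 was at 90.3 ± 1.89, S1pr4 at 90.0 ± 0.268 and Ccr7 at 55.4 ± 5.10. With TCF3-ZNF384, S1pr4 was at 123 ± 0.205, Cxcr4 at 84.8 ± 0.702 and Ccr7 at 70.1 ± 1.20. These orders rest on the annotated exon lengths, which were 1978 bases for Ccr7, 1808 for Cxcr4 and 1230 for S1pr4, and they were not tested.

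**Figure D1:**
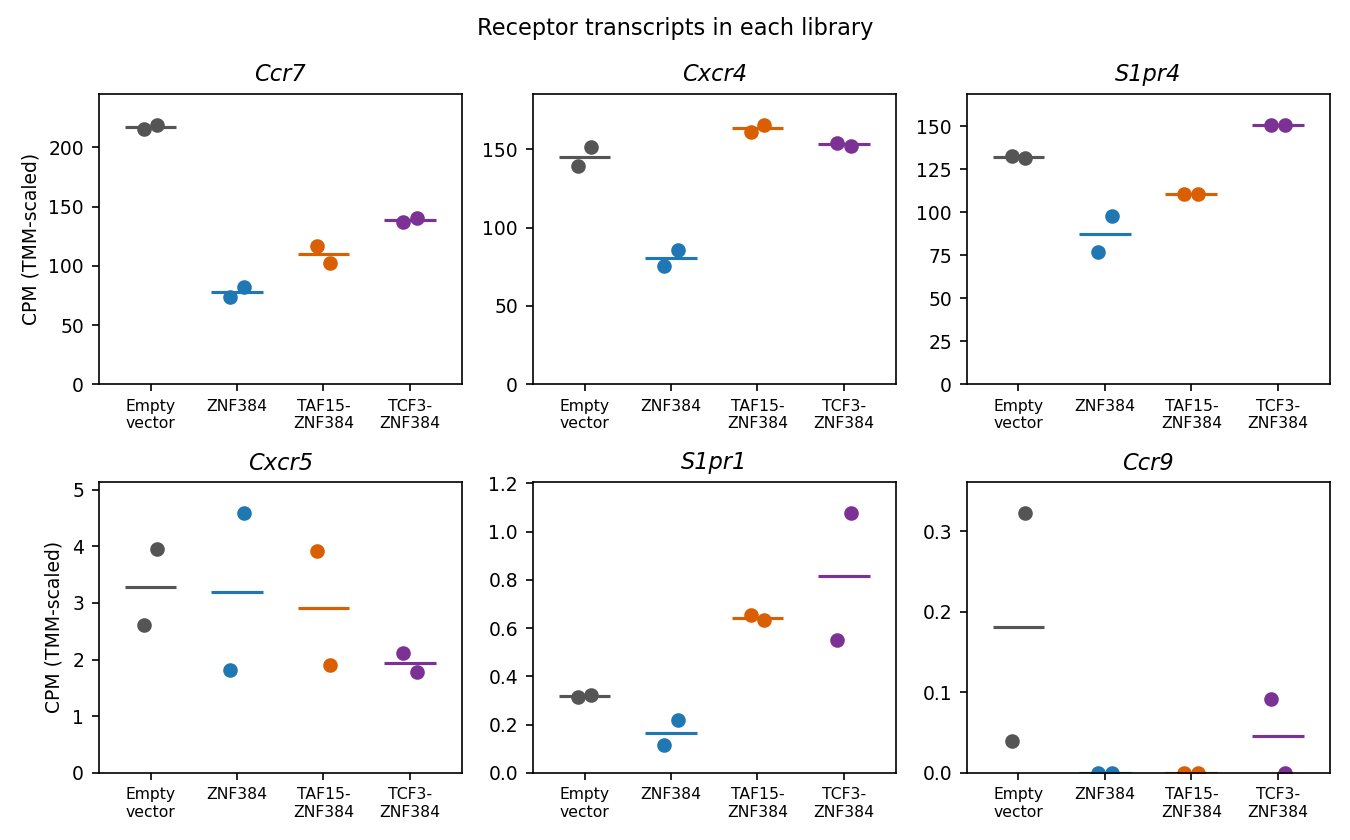
CPM (TMM-scaled, vertical axis from 0, a separate scale per panel) of the 6 receptor genes in each of the 8 libraries; each point is 1 library and each bar the mean of the 2 libraries of a group. Ccr7 is highest with the empty vector and lowest with wild-type ZNF384, Cxcr4 is low with wild-type ZNF384 only, and Cxcr5, S1pr1 and Ccr9 stay under 5 CPM in every library.

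Ccr7 was lower with all 3 constructs than with the empty vector, and lowest with wild-type ZNF384. Ccr7 lies on mm9 chromosome 11, from 99005510 to 99016391 on the minus strand, and is protein coding with 3 exons. It was at 215 and 219 CPM in the control libraries and at 73.9 and 82.4 CPM with wild-type ZNF384. It was at 117 and 103 CPM with TAF15-ZNF384 and at 137 and 140 CPM with TCF3-ZNF384. No library of one group overlapped those of another. Among all tested genes, 57.2 to 72.8% likewise did not overlap in a comparison of 2 groups. Over the empty vector, Ccr7 fell by 1.48 ± 0.10 on the log2 scale (SE) with wild-type ZNF384, a 2.78-fold lower level (adjusted p = 1.47e-06, edgeR quasi-likelihood test with Benjamini-Hochberg adjustment over the tested genes, as for each adjusted p here). It fell by 0.99 ± 0.10 with TAF15-ZNF384 (adjusted p = 3.89e-05), which is 1.98-fold lower, and by 0.65 ± 0.10 with TCF3-ZNF384 (adjusted p = 0.000233), which is 1.57-fold lower. The calls held in each of 14 alternative fits, with log2 fold changes of −1.57 to −1.41, −1.09 to −0.88 and −0.67 to −0.51. The 3 comparisons share the empty vector libraries.

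Ccr7 was less low with the fusions than with the unfused protein. Ccr7 with TCF3-ZNF384 exceeded that with wild-type ZNF384 by 0.83 ± 0.10 on the log2 scale (adjusted p = 2.07e-05). It was higher with TAF15-ZNF384 than with wild-type ZNF384 by 0.49 ± 0.10 (adjusted p = 0.00256), and without TAF15-ZNF384 replicate 1 that difference was 0.38 and did not pass. The fusions themselves differed by 0.34 ± 0.10, with a 95% interval of 0.12 to 0.56 (adjusted p = 0.0507), so these neighbours in the order were not separated at the threshold of 0.05. The difference passed in 7 of 14 alternative fits at 0.32 to 0.37, which were the DESeq2 Wald test, no filter, only these groups, the replicate block, total-count scaling, and either wild-type ZNF384 library left out. Over all 14 alternative fits, the difference between the fusions ran from 0.25 to 0.44. The order of Ccr7 levels was therefore empty vector, TCF3-ZNF384, TAF15-ZNF384 and wild-type ZNF384, with the middle pair not separated at the threshold.

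Cxcr4 was lower with wild-type ZNF384 than in each of the other groups, and no difference passed the test among those others. Cxcr4 lies on chromosome 1, from 130484776 to 130488870 on the minus strand, and is protein coding with 2 exons. It was at 139 and 151 CPM in the control libraries and at 75.3 and 85.7 CPM with wild-type ZNF384. It was at 161 and 166 CPM with TAF15-ZNF384 and at 154 and 152 CPM with TCF3-ZNF384. The wild-type ZNF384 libraries stood below the other 6. Between wild-type ZNF384 and each other group, 58.4 to 72.8% of all tested genes did not overlap either. Cxcr4 fell by 0.85 ± 0.10 on the log2 scale over the empty vector (adjusted p = 6.17e-05), a 1.80-fold lower level. TAF15-ZNF384 exceeded wild-type ZNF384 by 1.02 ± 0.10 on the log2 scale (adjusted p = 7.79e-06) and TCF3-ZNF384 exceeded it by 0.93 ± 0.10 (adjusted p = 6.28e-06). All 3 calls held in each of 14 alternative fits.

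For Cxcr4 the intervals around the fusions bound what could have been missed. TAF15-ZNF384 differed from the empty vector by 0.17 ± 0.10, with a 95% interval of −0.04 to 0.38 (adjusted p = 0.295). TCF3-ZNF384 differed from it by 0.08 ± 0.10, from −0.13 to 0.29 (adjusted p = 0.580). TCF3-ZNF384 differed from TAF15-ZNF384 by −0.09 ± 0.10, from −0.31 to 0.12 (adjusted p = 0.641). These levels were close, which the test does not show to be equal.

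S1pr4, whose product is the S1P receptor of haematopoietic cells, was at its lowest level with wild-type ZNF384 and at its highest with TCF3-ZNF384, and the latter was not separated from the control at the threshold. It lies on chromosome 10, from 80961223 to 80962452 on the minus strand, and is protein coding with 1 exon. It was at 133 and 131 CPM in the control libraries and at 76.8 and 97.9 CPM with wild-type ZNF384. It was at 111 and 110 CPM with TAF15-ZNF384 and at 151 and 151 CPM with TCF3-ZNF384. The groups did not overlap, as 57.2 to 72.8% of all tested genes did not in a comparison of 2 groups. The wild-type ZNF384 libraries were farther apart than those of the other groups. S1pr4 fell by 0.60 ± 0.11 on the log2 scale with wild-type ZNF384 over the empty vector (adjusted p = 0.00191), a 1.51-fold lower level that passed in each alternative fit. With TCF3-ZNF384 it was higher than with wild-type ZNF384 by 0.79 ± 0.11 (adjusted p = 6.95e-05), which also passed in each alternative fit.

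The smaller differences of S1pr4 were less stable. It was higher with TCF3-ZNF384 than with TAF15-ZNF384 by 0.45 ± 0.11 (adjusted p = 0.0215), the single receptor called between the fusions. Without any 1 of the 4 fusion libraries that difference kept a value of 0.44 to 0.45 and did not pass. It was higher with TAF15-ZNF384 than with wild-type ZNF384 by 0.34 ± 0.11 (adjusted p = 0.0311). Without either empty vector library (both 0.34), wild-type ZNF384 replicate 1 (0.19), TAF15-ZNF384 replicate 1 (0.33) or TAF15-ZNF384 replicate 2 (0.34), that difference did not pass, nor did it in a fit of only these groups, at 0.38. Over the empty vector, S1pr4 was at −0.26 ± 0.11 with TAF15-ZNF384 (adjusted p = 0.163) and at 0.19 ± 0.11 with TCF3-ZNF384 (adjusted p = 0.203). Both passed when only the groups compared were fitted, and when either wild-type ZNF384 library was left out of the fit, at −0.25 and 0.19. The directions were the same under each alternative.

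**Figure D2:**
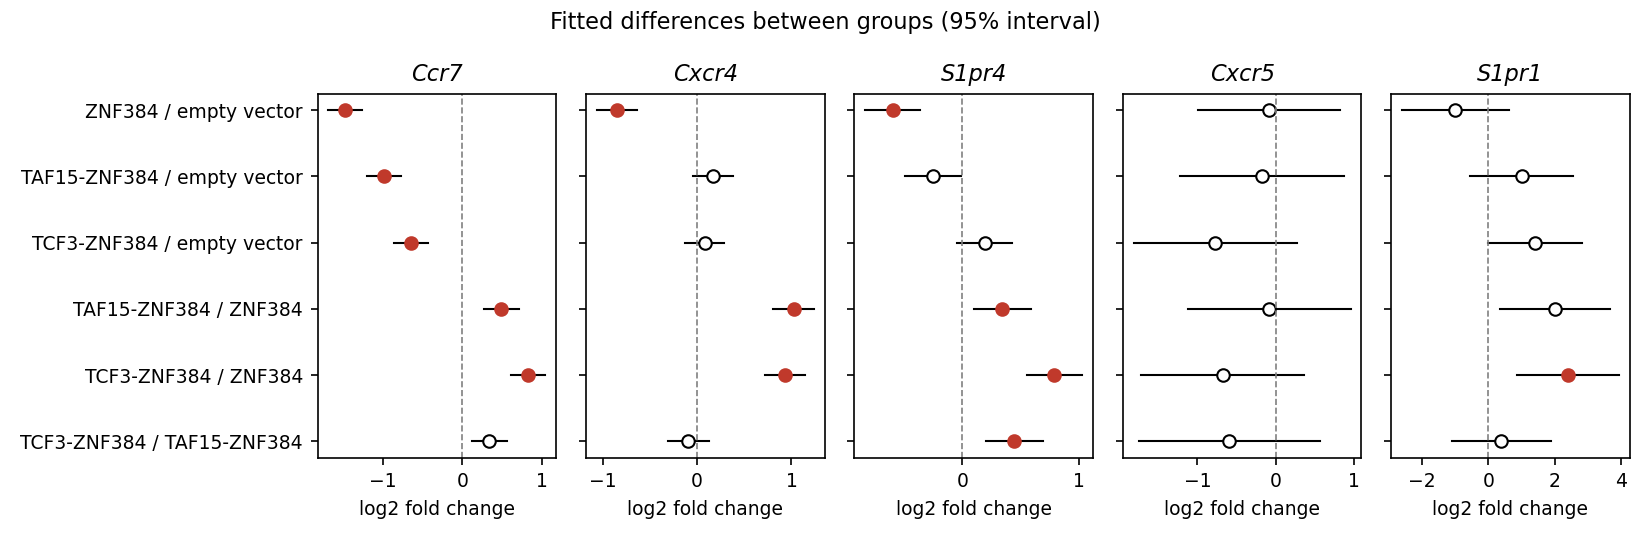
Log2 fold change (horizontal axis, a separate scale per panel) of the 5 tested receptors in the 6 comparisons between groups, first group over second; points are fitted values, lines their 95% intervals, and filled points passed an adjusted p of 0.05. Ccr7, Cxcr4 and S1pr4 are filled in the top row and again in the rows that set each fusion against wild-type ZNF384, and no comparison of Cxcr5 is filled.

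Cxcr5, Ccr9 and S1pr1 were scarce. Cxcr5 lies on chromosome 9, from 44319871 to 44334504 on the minus strand, and is protein coding with 2 exons. It was at 2.62 and 3.95 CPM in the controls, 1.81 and 4.59 with wild-type ZNF384, 3.91 and 1.90 with TAF15-ZNF384, while TCF3-ZNF384 libraries had 2.12 and 1.78. The 2 wild-type ZNF384 libraries spanned the whole range seen, apart from the lower TCF3-ZNF384 library. No difference of Cxcr5 passed, and the intervals were wide, for example −1.81 to 0.27 on the log2 scale for TCF3-ZNF384 over the empty vector. The value for TCF3-ZNF384 over wild-type ZNF384 was −0.68 ± 0.47, and it passed without wild-type ZNF384 replicate 1, at −1.24.

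S1pr1 lies on chromosome 3, from 115413351 to 115417973 on the minus strand, and was counted 64 times in all. It had 8 and 8 counts in the controls, 5 and 5 with wild-type ZNF384, 6 and 6 with TAF15-ZNF384, while TCF3-ZNF384 libraries had 6 and 20. In CPM these were 0.313 and 0.323, 0.115 and 0.218, 0.652 and 0.635, and 0.552 and 1.08. The fusion libraries stood above the empty vector libraries and these above the wild-type ZNF384 libraries. Such a separation, in either direction, held for 58.4 to 71.0% of all tested genes in these comparisons. A single difference passed, TCF3-ZNF384 over wild-type ZNF384, at 2.39 ± 0.72 on the log2 scale (adjusted p = 0.0118). The ratio of the summed counts was 5.87, with a 95% exact binomial interval of 2.74 to 13.6 that covers counting error only. That call ended without TCF3-ZNF384 replicate 2, at 1.78, and without wild-type ZNF384 replicate 1, at 1.93. S1pr1 passed the low-count filter only through the fusion libraries, where it is high, so a difference from wild-type ZNF384 was built into its passing, and its level in any group is known only roughly.

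Ccr9 lies on chromosome 9, from 123587557 to 123691089 on the plus strand, and its exons overlap those of Gm17200 on the same strand and of Slc6a20a and Gm17021 on the opposite strand, so reads in the shared bases may not have been counted for Ccr9. It had 1 and 8 counts in the controls, 1 and 0 with TCF3-ZNF384, and 0 in the other 4 libraries. A count of 0 allows a level of up to 0.0451 CPM over the wild-type ZNF384 group and 0.161 CPM over the TAF15-ZNF384 group, at 3 counts a group. Of the counts of the control, 8 came from 1 library, so no direction is read from them. Without the low-count filter, no comparison of Ccr9 passed, with adjusted p from 0.101 to 1.

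Counted together, 3 receptors were lower with wild-type ZNF384 than with the empty vector and none was higher, among 5 tested. Of all tested genes, 20.6% passed in this comparison, 9.87% lower and 10.8% higher. The median log2 fold change of the 5 was −0.85, against 0.03 over all tested genes. The receptors were chosen with earlier results of these data known, which limits what such counts show against all genes. Over the empty vector, Ccr7 alone passed with TAF15-ZNF384, where 11% of all genes passed (6.01% lower, 5.01% higher), and the median of the 5 was −0.18. Ccr7 alone also passed with TCF3-ZNF384, where 33.3% of all genes passed (17% lower, 16.2% higher), and the median was 0.08. Both counts were 2, adding S1pr4, without either wild-type ZNF384 library. Over wild-type ZNF384, 3 receptors were higher and none lower with TAF15-ZNF384, where 33.3% of all genes passed (15.4% higher, 17.9% lower). Without TAF15-ZNF384 replicate 1 that count was 1. With TCF3-ZNF384, 4 were higher and none lower, S1pr1 with its reservation among them, where 45.6% of all genes passed (22.2% higher, 23.4% lower). Between the fusions 1 receptor was higher with TCF3-ZNF384 and none lower, where 10.1% of all genes passed (5.91% higher, 4.17% lower). That count was 0 without any 1 of the 4 fusion libraries, 2 in the fit with either wild-type ZNF384 library left out, and 2 in a fit of only the fusions. Scaling by total counts without the 5 non-coding genes moved the median log2 fold change of all genes to 0.12 for TAF15-ZNF384 and 0.15 for TCF3-ZNF384 over the empty vector, and to 0.12 and 0.18 over wild-type ZNF384. Of the calls over the empty vector 67.1 and 67.6% were then higher, against 45.5 and 48.8%, and of those over wild-type ZNF384 65.0 and 65.6%, against 46.4 and 48.7%. No receptor lost its call under that scaling. In RNA from whole cultures, fewer cells expressing a receptor and less RNA per cell cannot be told apart.

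Other genes of the same system were taken from 9 lists of 117 genes in all, of which 80 were tested. Across the lists, 14 genes were higher and 9 lower with wild-type ZNF384 over the empty vector, 2 higher and 13 lower with TAF15-ZNF384, and 20 higher and 20 lower with TCF3-ZNF384. The shares of all tested genes that passed in these comparisons were 20.6%, 11% and 33.3%. The median log2 fold changes of the lists were 0.10, −0.01 and 0.17. With 1 library left out, 10 to 29, 5 to 25 and 25 to 47 of the genes passed. With wild-type ZNF384, 15 passed when empty vector replicate 1 was left out and 10 when replicate 2 was. With TAF15-ZNF384 those that passed were 8 and 9 without empty vector replicates 1 and 2, 5 without either TAF15-ZNF384 library and 25 without either wild-type ZNF384 library. With TCF3-ZNF384 they were 25 without empty vector replicate 2 and 26 without TCF3-ZNF384 replicate 2. Over wild-type ZNF384 the counts were 13 higher and 23 lower with TAF15-ZNF384 and 23 higher and 20 lower with TCF3-ZNF384, where 33.3% and 45.6% of all genes passed. The former were 4 higher and 11 lower without TAF15-ZNF384 replicate 1, and 10 higher and 13 lower without replicate 2. Between the fusions 13 were higher and 3 lower with TCF3-ZNF384, where 10.1% of all genes passed, and 7 to 10 passed without any 1 of the fusion libraries.

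Most other chemokine receptor genes were below the low-count filter. Of 22 listed, 3 passed the filter: Ccr2, Ccr4 and Ccrl2. Ccr4, the receptor for CCL17 and CCL22, stood apart with TCF3-ZNF384. It was at 7.27 and 6.51 CPM there, against 0.274 and 0.161 with the empty vector, 0.0688 and 0.0437 with wild-type ZNF384, and 0.652 and 0.317 with TAF15-ZNF384. TCF3-ZNF384 exceeded the empty vector by 4.94 ± 0.49 on the log2 scale (adjusted p = 1.15e-06) and TAF15-ZNF384 by 3.81 ± 0.52 (adjusted p = 0.000101). Ccr4 passed the low-count filter only through the TCF3-ZNF384 libraries, where it is high, so these differences were built into its passing. Ccr2, a receptor of monocyte trafficking, fell by 3.43 ± 0.89 with TCF3-ZNF384 over the empty vector (adjusted p = 0.00272), from a mean of 1.51 ± 0.136 to 0.127 ± 0.0491 CPM (SD, n = 2). The TCF3-ZNF384 libraries held 1 and 3 counts of it. Ccr2 passed the low-count filter only through the empty vector and wild-type ZNF384 libraries, where it is higher, so this fall was built into its passing.

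Of the ligands, 6 of 7 listed were in the table and 1 was tested. Ccl25, the ligand of Ccr9, was at 22.0 to 30.4 CPM in all 8 libraries and no comparison of it passed. Cxcl13, Ccl19, Ccl21a and Ccl21b had no count, and Cxcl12 was at a mean of at most 0.0729 CPM in any group.

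Among the genes of S1P receptors and S1P metabolism, 9 of 13 were tested. With wild-type ZNF384, where 20.6% of all genes passed, 2 rose and none fell. That count was 1 without any 1 of 6 libraries, namely empty vector replicate 2, wild-type ZNF384 replicate 1 and the fusion libraries. S1pr3, another S1P receptor gene, was at 5.94 ± 0.494 CPM in the control and 13.1 ± 0.517 CPM with wild-type ZNF384 (SD, n = 2). It rose by 1.14 ± 0.16 on the log2 scale (adjusted p = 0.000238), where S1pr4 fell. With TCF3-ZNF384, Sgpl1, which encodes the lyase that breaks S1P down, rose by 0.75 ± 0.16 (adjusted p = 0.00272). In all, 2 of the list rose and 1 fell there, where 33.3% of all genes passed, against 11% with TAF15-ZNF384. Without empty vector replicate 2 or TCF3-ZNF384 replicate 1, 1 rose and none fell. With TAF15-ZNF384 1 rose and 1 fell, and neither passed without any 1 of the empty vector or TAF15-ZNF384 libraries.

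The regulators of receptor expression or surface level included a steep fall with wild-type ZNF384. Klf2 encodes a transcription factor that activates S1pr1 in lymphocytes. It was at 31.8 and 65.0 CPM in the controls, 0.871 and 2.05 with wild-type ZNF384, 84.8 and 71.6 with TAF15-ZNF384, while TCF3-ZNF384 libraries had 151 and 179. Klf2 fell by 5.19 ± 0.59 with wild-type ZNF384 (adjusted p = 0.00216), a call that ended without wild-type ZNF384 replicate 1, at −4.57. It exceeded wild-type ZNF384 by 5.88 ± 0.59 with TAF15-ZNF384 (adjusted p = 0.000828) and by 6.96 ± 0.58 with TCF3-ZNF384 (adjusted p = 0.000228). Foxo1, which encodes a transcription factor upstream of Klf2 and Ccr7, was at 192 and 189 CPM in the controls, 122 and 120 with wild-type ZNF384, 143 and 109 with TAF15-ZNF384, while TCF3-ZNF384 libraries had 226 and 224. It fell by 0.66 ± 0.11 with wild-type ZNF384 (adjusted p = 0.00119) and was higher with TCF3-ZNF384 than with TAF15-ZNF384 by 0.84 ± 0.12 (adjusted p = 0.000409). Cd69, whose product removes S1P receptor 1 from the surface, fell by 1.82 ± 0.13 with wild-type ZNF384 (adjusted p = 1.79e-06) and by 0.70 ± 0.13 with TCF3-ZNF384 (adjusted p = 0.000973). Of the 8 genes of this list 2 rose and 3 fell with wild-type ZNF384, where 20.6% of all genes passed. The 2 that rose were Pou2f2, by 1.10 ± 0.23 (adjusted p = 0.00414), and Pou2af1, by 0.33 ± 0.09 (adjusted p = 0.0162). None rose and 2 fell with TAF15-ZNF384, against 11% of all genes, and 3 rose and 1 fell with TCF3-ZNF384, against 33.3%. The 2 that fell with TAF15-ZNF384 were Foxo1 and Cd69, and Foxo1 did not pass without TAF15-ZNF384 replicate 2, at −0.43, nor Cd69 without replicate 1, at −0.71. With TCF3-ZNF384 1 rose and 1 fell without empty vector replicate 2 or either TCF3-ZNF384 library. With wild-type ZNF384 none rose and 3 fell without empty vector replicate 2.

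**Figure D3:**
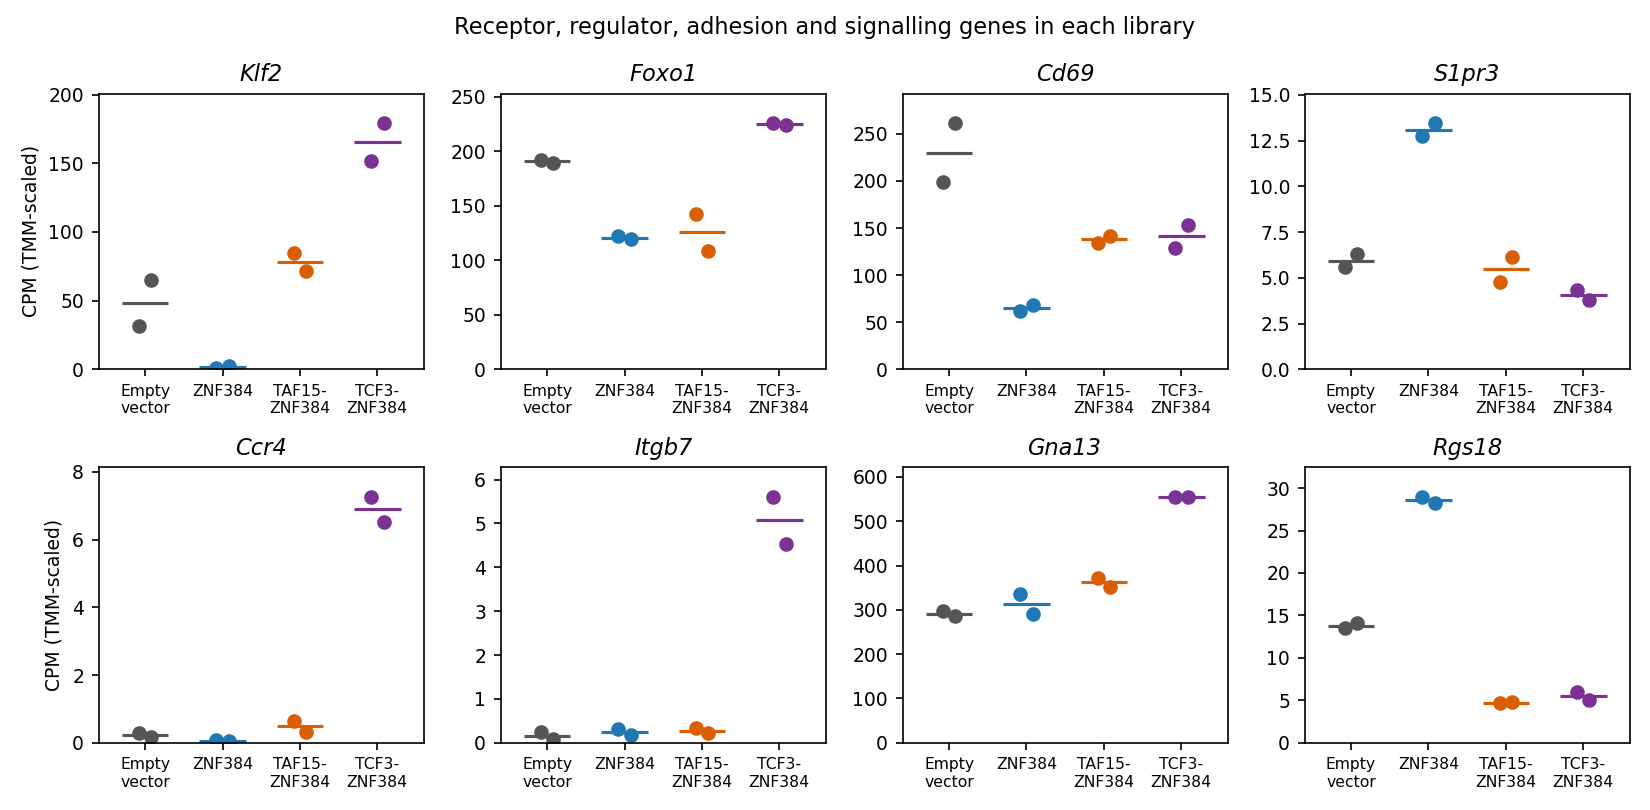
CPM (TMM-scaled, vertical axis from 0, a separate scale per panel) of 8 receptor, regulator, adhesion and signalling genes in each library; points are libraries and bars the means of 2. Klf2 is near 0 with wild-type ZNF384, where S1pr3 and Rgs18 are highest, and Ccr4 and Itgb7 are above 4 CPM with TCF3-ZNF384 only.

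Among the homing adhesion molecules, 9 of 11 were tested. In this list 2 rose and 1 fell with wild-type ZNF384, where 20.6% of all genes passed. The gene that fell was Icam1, which encodes a ligand of leukocyte integrins, by 0.88 ± 0.16 (adjusted p = 0.00171), and it fell by 1.35 ± 0.18 with TCF3-ZNF384 (adjusted p = 6.05e-05). None passed with TAF15-ZNF384, except that 1 rose and 1 fell without either wild-type ZNF384 library. With TCF3-ZNF384 3 rose, Itgb7 among them, and 2 fell, where 33.3% of all genes passed (11% with TAF15-ZNF384). Itgb7, the beta chain of gut-homing integrins, was at 5.61 and 4.52 CPM with TCF3-ZNF384 and at 0.0806 to 0.326 CPM in the other 6 libraries. It rose by 4.94 ± 0.61 over the empty vector (adjusted p = 9.90e-06), whereas Itga4, the alpha chain that pairs with it, fell by 0.84 ± 0.12 (adjusted p = 9.74e-05). Itgb7 passed the low-count filter only through the TCF3-ZNF384 libraries, where it is high, so its rise was built into its passing. Itgb1, the other partner of Itga4, rose by 1.25 ± 0.10 (adjusted p = 4.87e-07).

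Downstream of the receptors, 10 G protein subunit genes were tested. Of these, 3 rose with TCF3-ZNF384 over the empty vector, where 33.3% of all genes passed. None passed with TAF15-ZNF384 (11% of all genes), and 1 rose and 1 fell with wild-type ZNF384 (20.6% of all genes). With 10 genes, none of these counts is far from its share. With wild-type ZNF384 none passed without either empty vector library, and 1 without either TCF3-ZNF384 library. With TAF15-ZNF384 2 rose without either wild-type ZNF384 library. With TCF3-ZNF384 over the empty vector, Gna13, which encodes a G protein alpha subunit, rose by 0.93 ± 0.10 (adjusted p = 8.43e-06). Its level went from 298 and 285 CPM to 556 and 554 CPM. Gnb2 rose by 1.08 ± 0.11 in the same comparison (adjusted p = 5.74e-06). RGS proteins end G protein signals. Of 9 tested genes, 3 rose and 2 fell with wild-type ZNF384, where 20.6% of all genes passed. With TAF15-ZNF384 1 rose and 2 fell, against 11% of all genes, and with TCF3-ZNF384 2 rose and 3 fell, against 33.3%. With TCF3-ZNF384 1 fell without empty vector replicate 2 or either TCF3-ZNF384 library, and with TAF15-ZNF384 none rose and 1 fell without TAF15-ZNF384 replicate 2. Rgs18 moved in opposite directions with the unfused protein and the fusions. It rose by 1.06 ± 0.12 with wild-type ZNF384 (adjusted p = 4.01e-05), and fell by 1.55 ± 0.17 with TAF15-ZNF384 (adjusted p = 3.60e-05) and by 1.34 ± 0.14 with TCF3-ZNF384 (adjusted p = 8.41e-06).

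Receptor kinases and arrestins silence active receptors. Of 6 tested, 2 rose and 1 fell with wild-type ZNF384, 1 fell with TAF15-ZNF384, and 2 rose and 2 fell with TCF3-ZNF384. The shares of all genes that passed were 20.6%, 11% and 33.3% in that order. No call over the empty vector in this list exceeded a log2 value of 0.66 in size. With wild-type ZNF384 none passed without either empty vector library. With TAF15-ZNF384 none passed without any 1 of the empty vector, TAF15-ZNF384 or TCF3-ZNF384 libraries. With TCF3-ZNF384 1 or none passed without any 1 of the empty vector or TCF3-ZNF384 libraries. Of 25 tested migration signalling genes, 2 rose and 1 fell with wild-type ZNF384, where 10.8% of all genes rose and 9.87% fell. None rose and 6 fell with TAF15-ZNF384, against 5.01% and 6.01% of all genes. With TCF3-ZNF384 4 rose and 10 fell, against 16.2% and 17% of all genes. With wild-type ZNF384 none passed without empty vector replicate 2, and 6 and 7 passed without wild-type ZNF384 replicates 1 and 2. With TAF15-ZNF384 the number that passed was 2 or 3 without empty vector replicate 1 or either TAF15-ZNF384 library, and 11 without either wild-type ZNF384 library. With TCF3-ZNF384 it was 8 without empty vector replicate 1 and 9 without TCF3-ZNF384 replicate 2. Pik3r5, the adaptor of the phosphoinositide 3-kinase that G proteins activate, fell with both fusions, by 1.40 ± 0.17 with TAF15-ZNF384 (adjusted p = 9.81e-05) and by 1.35 ± 0.15 with TCF3-ZNF384 (adjusted p = 1.23e-05). Pik3cg, the catalytic subunit it serves, was higher with TCF3-ZNF384 than with TAF15-ZNF384 by 1.15 ± 0.11 (adjusted p = 1.54e-05).

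The genes with the profile most like each of 4 receptors were taken by the root mean square difference of log2 CPM over the 8 libraries, each gene centred on its own mean, among 8585 or 8586 named genes of at least 5 CPM. Ccr7 was closest to Rel, the gene of the NF-kB subunit c-Rel, at 0.105, against a spread of Ccr7 itself of 0.539. Rel was at 82.5 and 83.6 CPM with the empty vector, 34.0 and 35.8 with wild-type ZNF384, 46.6 and 44.7 with TAF15-ZNF384, while TCF3-ZNF384 libraries had 61.5 and 63.9. Bbof1 followed at 0.201 and Rgs2, one of the RGS genes, at 0.222. Cxcr4 was closest to Skil, which encodes an inhibitor of SMAD signalling, at 0.0420, then Limd2 at 0.0642 and the RNA-binding protein gene Rbm38 at 0.0673, against a spread of 0.412. S1pr4 was closest to the kinase gene Sik3 at 0.0797, Pbxip1 at 0.1004 and the purinergic receptor gene P2rx4 at 0.103, against 0.310. Cxcr5 had no close neighbour, with Fndc3b at 0.268 against a spread of 0.448. S1pr1 was left out, since the 0.5 CPM added before the log exceeds its level in the empty vector and wild-type ZNF384 libraries. The 8 libraries are 4 groups of 2, so these are descriptions of shared group levels.

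**Figure D4:**
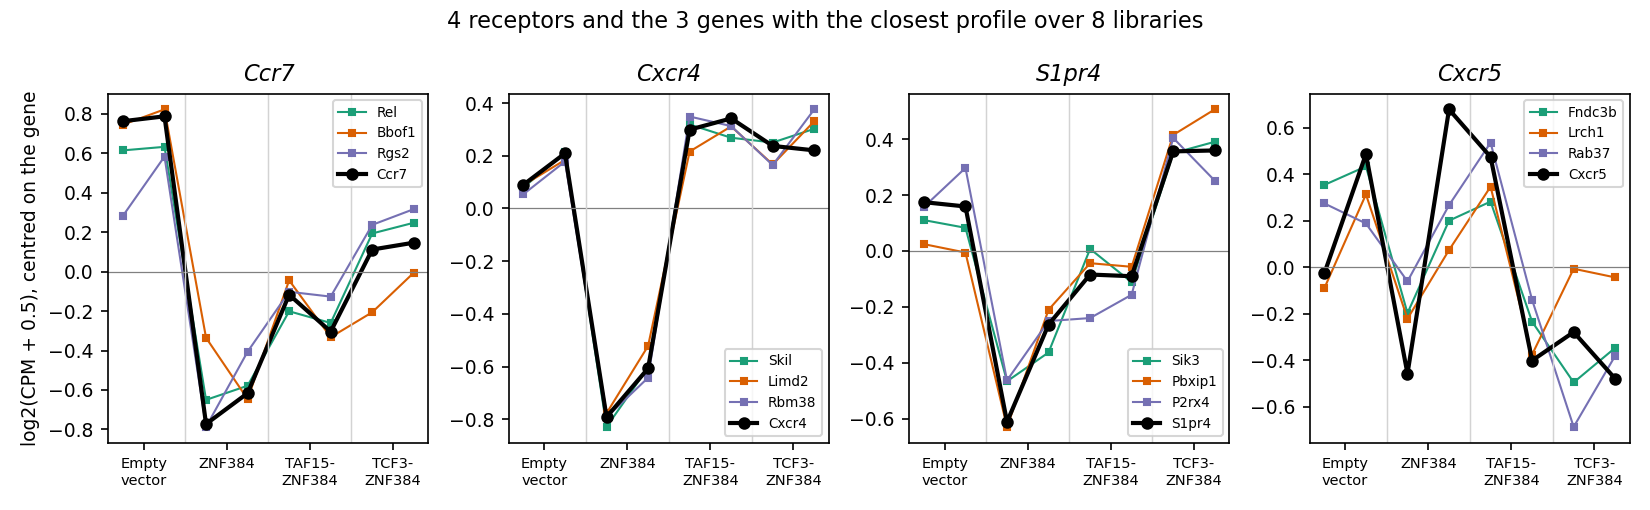
Log2(CPM + 0.5) centred on each gene's mean (vertical axis, a separate scale per panel) in the 8 libraries, 2 per group (horizontal axis), for Ccr7, Cxcr4, S1pr4 and Cxcr5 in black and its 3 closest genes in colour; lines join libraries only as a guide to the eye. Ccr7 and Rel run highest with the empty vector and lowest with wild-type ZNF384, and Cxcr4 and its neighbours are low in the wild-type ZNF384 libraries alone.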

How the data were processed

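RNA of 8 libraries was counted per gene. Per the submitters' processing notes, the deposited values are raw counts made with HTSeq 0.6.1p1 on mm9, and the aligner and the strand setting are not given in the sources used here. All columns were used and matched to samples by their description. Columns of the ZNF384 constructs carry replicate numbers 2 and 3 where the titles say 2 and 1, and the titles' numbers are used. The tests used edgeR 4.0.16 (R 4.3.3): filterByExpr, TMM scaling, 1 term per group over all 8 libraries, robust quasi-likelihood fit (4 residual degrees of freedom), 2-sided F test, Benjamini-Hochberg adjustment over 12970 genes, threshold 0.05. SE come from the fit, and intervals are at 95%. p-values measure the spread between 2 cultures a group. The fit draws each gene's spread towards that of other genes, so the receptors' tests and intervals rest on more than 4 degrees of freedom. Intervals of counts cover counting error only. Positions and exon lengths are GENCODE vM1 on mm9, matched by symbol. The script was tested on simulated data. Alternatives were DESeq2 1.42.0 (size factors, and its Wald test), no filter, fits of 2 groups, a replicate block, total-count scaling without 5 non-coding genes, each library left out, and longest-transcript lengths. The receptors and lists were chosen with earlier results of these data known. Named genes are the 6 receptors, Zfp384, up to 3 genes per list, direction and comparison with the smallest adjusted p, and the 3 closest profiles per receptor (not S1pr1, which lies below the added 0.5), and the text prints part of them. A few items are not reported here. Profiles used log2(CPM + 0.5).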

Additional observations from a re-analysis of the deposited data

How the results depend on the processing

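Of 417 refitted fold changes of the receptors, 380 kept their direction and side of the threshold, 14 newly passed, 13 no longer passed and 10 changed sign. The cause was not tested. The 10 sign changes were of values that had not passed. For Cxcr5, TAF15-ZNF384 over wild-type ZNF384 was 0.028 with total-count scaling. With 1 library left out it ran from −0.70 to 0.70, wild-type ZNF384 over the empty vector from −0.87 to 0.47, TAF15-ZNF384 over the empty vector from −0.79 to 0.24, TCF3-ZNF384 over wild-type ZNF384 from −1.24 to 0.10, and TCF3-ZNF384 over TAF15-ZNF384 from −1.02 to 0.016. For S1pr1, TCF3-ZNF384 over TAF15-ZNF384 ran from −0.23 without TCF3-ZNF384 replicate 2 to 0.74.

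The number of receptors called between the fusions, 1, was 2 with the DESeq2 Wald test, without the filter, in a fit of only 2 groups, with total-count scaling and with the replicate block, each time by adding Ccr7. It was 2 in place of 1 for each fusion over the empty vector in a fit of only 2 groups. With 1 library left out, the receptors called were 3 to 3 for wild-type ZNF384, 1 to 2 for TAF15-ZNF384 and 1 to 2 for TCF3-ZNF384 over the empty vector, 1 to 3 and 3 to 4 for these fusions over wild-type ZNF384, and 0 to 2 between them. The genes called in all were 1064 to 3814, 404 to 2783, 2501 to 5372, 2158 to 5333, 3866 to 6558 and 371 to 2361 in the same order, against 2675, 1430, 4317, 4320, 5916 and 1308. The fit of only 2 groups gave 2746 for TAF15-ZNF384 over the empty vector and 2548 between the fusions.

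Where a group kept 1 library, it was assumed to vary like the others. Deviations of same-numbered libraries correlated at −0.00183 to 0.226. With 1 such deviation per group, this cannot show whether the libraries were paired, so the replicate block was an alternative only. It gave 2999, 1825, 4655, 4653, 6111 and 1523 genes in that order. Of the values of other named genes, 301 of 2083 no longer passed under an alternative and none changed sign. Lengths of the longest transcript moved no level by more than the spread between replicates. Depth limits S1pr1 and Ccr9 most.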
